A study of Homo sapiens with 4 samples.

Results

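The miR-30 family was followed through 4 small RNA libraries of the RD cell line, which was established from an embryonal rhabdomyosarcoma, a human tumour of muscle character. The 8 members were the rows of the deposited count table named hsa-miR-30a-5p, hsa-miR-30b-5p, hsa-miR-30c-5p, hsa-miR-30d-5p, hsa-miR-30e-5p, hsa-miR-30a-3p, hsa-miR-30d-3p and hsa-miR-30e-3p, taken by their family name and not by a threshold on their values. All 8 were present among the 2656 mature miRNAs listed. Biotinylated antisense probes were added to lysate of untreated cells in a native pull-down, and RNA held by the probes was recovered on streptavidin beads and sequenced. EVEN and ODD are separate probe sets against exon 2 of HIPK3, the exon that forms the circular RNA circHIPK3. LacZ probes, against a bacterial mRNA, gave the control pull-down, and the input is RNA of RD cells without a pull-down. Each of the 4 groups is 1 library from 1 biological replicate, so the differences below lack a replicate check and no test across samples was run. Exon 2 also belongs to linear HIPK3 mRNA, and the recovery of circHIPK3 was not analysed here.

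A miRNA hairpin is cut into a duplex, and an Argonaute protein usually keeps one arm as the guide, which pairs with target RNAs through its seed, bases 2 to 8. In the miR-30 family the 5p arm is the usual guide, and the 3p arms carry a different seed. The family is conserved in vertebrates and is known for restraining epithelial-to-mesenchymal transition and fibrosis and for acting in muscle differentiation. CircHIPK3 has been reported elsewhere, in retinal endothelial cells, as a partner of miR-30a-3p.

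The sequences are shown because the matching arms of miR-30a and miR-30e are nearly identical and because seeds are compared with exon 2. RefSeq sequences on GRCh38.p14 were matched for 5 of the 8 members. Capitals mark the seed, and letters run from the 5′ to the 3′ end.
miR-30a-5p: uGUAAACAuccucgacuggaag
miR-30c-5p: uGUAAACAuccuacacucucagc
miR-30e-5p: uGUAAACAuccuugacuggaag
miR-30a-3p: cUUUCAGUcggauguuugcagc
miR-30e-3p: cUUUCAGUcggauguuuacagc

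The printed 5p arms share 1 seed, GUAAACA, and the printed 3p arms share another, UUUCAGU. miR-30a-5p and miR-30e-5p differ at a single base, C13U, counted from the 5′ end with the base of miR-30a first. miR-30a-3p and miR-30e-3p also differ at a single base, G18A. The first 12 bases of miR-30c-5p are those of miR-30a-5p and miR-30e-5p. The sources used here do not give how reads that fit several miRNAs were assigned, so the split of reads among such close copies is uncertain.

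MIR30E lies on chromosome 1 at 40754355 to 40754446 and MIR30C1 at 40757284 to 40757372, both on the plus strand in introns of NFYC and 2837 bases apart. NFYC encodes a subunit of the CCAAT-binding factor NF-Y. MIR30C2, on chromosome 6 at 71376960 to 71377031, and MIR30A, at 71403551 to 71403621, both on the minus strand, lie in introns of the long non-coding RNA LINC00472 and of the overlapping AL136164.2. MIR30C1 and MIR30C2 give the same mature 5p arm, so reads of miR-30c-5p cannot be split between the 2 loci. The hairpin positions are those of GENCODE release 29 for GRCh38, which is also the submitters' build.

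The miRNA reads numbered 98950 in EVEN, 426450 in ODD, 425395 in LacZ and 2987858 in the input. Levels are in CPM, reads per 1000000 miRNA reads of the library, and intervals are 95% exact binomial intervals that cover counting error only. A count of 0 allows up to 30.3 CPM in EVEN, 7.03 in ODD, 7.05 in LacZ and 1.00 in the input, taking 3 reads as the limit. As a check of the cell line, the muscle miRNA miR-206 took 9.53% of EVEN, 3.27% of ODD, 5.90% of LacZ and 4.21% of input reads, and the other 3 muscle miRNAs listed, miR-1-3p, miR-133a-3p and miR-133b, had reads in every library.

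The miR-30 family was a minor part of the circHIPK3 pull-downs and a larger part of the other libraries. The 8 members took 0.258% of EVEN reads (0.227 to 0.291), 0.1796% of ODD (0.167 to 0.193), 1.42% of LacZ (1.38 to 1.46) and 2.26% of input reads (2.24 to 2.28). Nearly all of these were 5p reads, with 247 in EVEN, 745 in ODD, 5882 in LacZ and 65276 in the input. The 3 3p members together gave 8, 21, 158 and 2303 reads in these libraries. The family's share was thus lowest in ODD and highest in the input, and the 4 intervals did not overlap.

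hsa-miR-30e-5p was the most abundant member in every library. Its level was 1597 CPM in EVEN (1358 to 1866), 1142 in ODD (1043 to 1248), 11711 in LacZ (11390 to 12039) and 15382 in the input (15243 to 15522). By reads these were 158, 487, 4982 and 45960. It ranked 57 among all miRNAs in EVEN, 57 in ODD, 20 in LacZ and 19 in the input. Its place in the ranking was thus the same in EVEN and ODD, and higher up in LacZ and the input.

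hsa-miR-30c-5p, which represses the matrix protein CTGF in heart, was the second member in every library. It had 65 reads and 657 CPM in EVEN (507 to 837), 185 reads and 434 CPM in ODD (374 to 501), 594 reads and 1396 CPM in LacZ (1286 to 1513) and 11011 reads and 3685 CPM in the input (3617 to 3755). Its order across libraries was the same as for miR-30e-5p, with a smaller step between the circHIPK3 pull-downs and LacZ. miR-30b-5p and miR-30d-5p come from 1 genomic cluster and have both been linked to melanoma invasion. hsa-miR-30b-5p had 80.8 CPM in EVEN (34.9 to 159.3), 105.5 in ODD (77.0 to 141.2), 357 in LacZ (303 to 419) and 1984 in the input (1934 to 2035), from 8, 45, 152 and 5928 reads. hsa-miR-30d-5p had 152 CPM in EVEN (84.8 to 250.02), 61.0 in ODD (39.8 to 89.3), 350.3 in LacZ (296 to 411) and 765 in the input (734 to 797), from 15, 26, 149 and 2285 reads. For miR-30b-5p the EVEN and ODD intervals overlapped, as those of miR-30d-5p did by a small margin, and for both miRNAs the EVEN and ODD intervals lay below that of LacZ. In LacZ these miRNAs were level with each other, while in the input miR-30b-5p was 2.59 times miR-30d-5p (2.47 to 2.72).

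hsa-miR-30a-5p, known for repressing the autophagy gene BECN1, was the rarest 5p member. It had 1 read in EVEN, 2 in ODD, 5 in LacZ and 92 in the input, or 10.1, 4.69, 11.8 and 30.8 CPM. The intervals of the 3 pull-downs overlapped each other, so no difference among them was detectable at this depth. The 3p arms were rarer than the 5p arms of the same hairpins in every library. hsa-miR-30e-3p had 60.6 CPM in EVEN (22.3 to 132), 39.9 in ODD (23.2 to 63.8), 256 in LacZ (210.4 to 309) and 526 in the input (500.4 to 553), from 6, 17, 109 and 1572 reads. hsa-miR-30d-3p had 2 reads in EVEN, 3 in ODD, 47 in LacZ and 678 in the input, or 20.2, 7.03, 110.5 and 227 CPM. hsa-miR-30a-3p, the arm reported elsewhere as a circHIPK3 partner, had 0 reads in EVEN, 1 in ODD, 2 in LacZ and 53 in the input, or 0, 2.34, 4.70 and 17.7 CPM. Its EVEN count of 0 allows up to 30.3 CPM, above its input level, so its recovery with EVEN probes could not be judged at this depth.

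**Figure D1:**
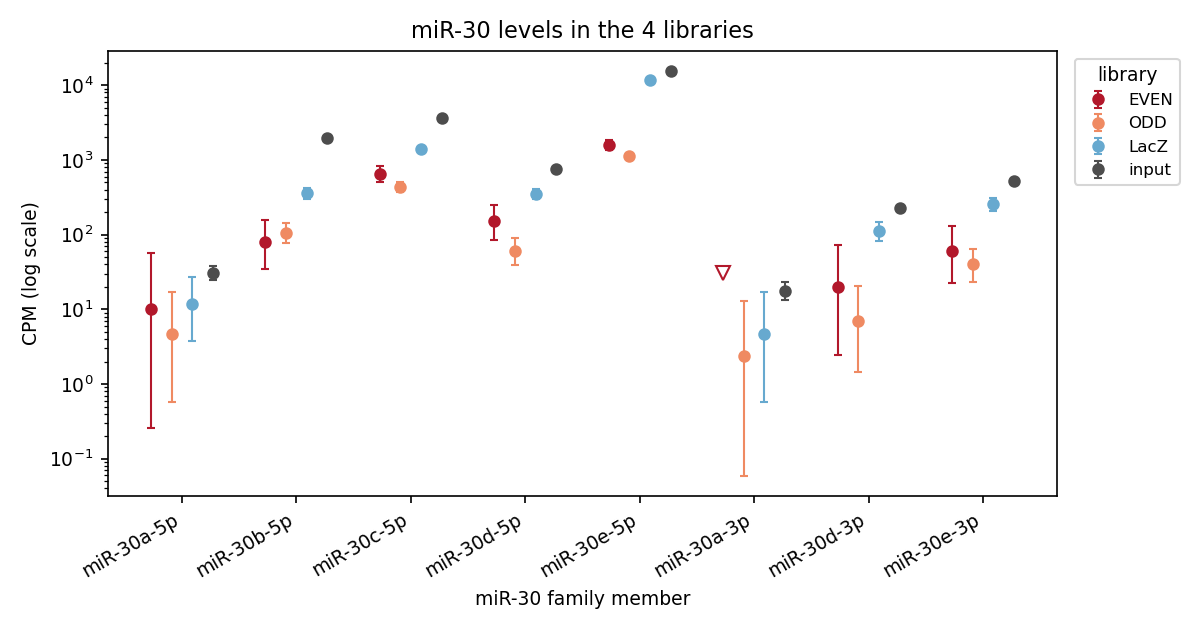
Level of each miR-30 member (CPM, log axis) in the EVEN, ODD, LacZ and input libraries. Points are single libraries, bars are 95% exact binomial counting intervals, and the open triangle marks the 30.3 CPM that a count of 0 allows for miR-30a-3p in EVEN; miR-30e-5p runs from 1142 CPM in ODD to 15382 CPM in the input.

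Against LacZ, which asks what the circHIPK3 probes held beyond control probes, no tested member was higher with either probe set. Among the 5p members the largest step was that of miR-30e-5p, whose EVEN level was 7.33-fold lower (95% exact conditional Clopper-Pearson counting interval 6.26 to 8.65) and whose ODD level was 10.3-fold lower (9.34 to 11.3). At the LacZ share, EVEN would have held 1159 reads of it and ODD 4994, against the 158 and 487 counted. For miR-30c-5p the factor was 2.13 in EVEN (1.64 to 2.79) and 3.22 in ODD (2.72 to 3.82). For miR-30b-5p it was 4.42 in EVEN (2.19 to 10.4) and 3.39 in ODD (2.41 to 4.83), both again below LacZ. The intervals of miR-30e-5p did not overlap those of miR-30c-5p with either set, so the steps of these guide arms were unequal beyond counting error.

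miR-30d-5p was below LacZ by a factor of 2.31 in EVEN (1.36 to 4.23) and of 5.74 in ODD (3.77 to 9.08). The 3p arms stood lower as well. For miR-30e-3p the factor was 4.23 in EVEN (1.88 to 11.8) and 6.43 in ODD (3.84 to 11.4). For miR-30d-3p it was 5.47 in EVEN (1.43 to 46.5, from 2 reads) and 15.7 in ODD (5.06 to 78.9, from 3 reads), the largest ODD factor of a tested member and the one with the widest interval. The 3 3p members together were below LacZ by a factor of 4.59 in EVEN (2.28 to 10.8) and 7.54 in ODD (4.77 to 12.5). For the 5 5p members together it was 5.54 in EVEN (4.88 to 6.32) and 7.91 in ODD (7.33 to 8.55), and the intervals of the arms overlapped with either set. The arms of miR-30a had at most 5 reads in the 3 pull-downs and were not tested, since a comparison took only miRNAs that reached 20 reads in 1 or both of its libraries. Tested here means set against a 2-fold threshold, with no p-value.

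Of the 8 members 6 were tested with each probe set, and all 6 were at least 2-fold lower and 0 higher with EVEN as with ODD probes. This count has to be read against the whole table, in which most miRNAs were also lower than in LacZ. With EVEN probes 51.2% of 289 tested miRNAs were at least 2-fold lower and 9.69% higher. With ODD probes 70.3% of 300 were at least 2-fold lower and 13.0% higher. In addition, 4 of the 6 members with EVEN and 2 with ODD reached 20 reads through LacZ alone, and the 2 comparisons share the LacZ library.

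The log2 ratio of shares, with 0.5 added to each count, had a median over all tested miRNAs of -1.06 with EVEN and -1.79 with ODD probes. The median of the 6 tested members was -2.02 with EVEN and -2.57 with ODD. Relative to the median of all tested miRNAs, miR-30e-5p lay 1.81 lower with EVEN, at -2.87, and 1.56 lower with ODD, at -3.36. It was at rank 42 from the lowest of 289 and rank 45 of 300. miR-30c-5p was at the middle of the table, with ratios of -1.08 with EVEN and -1.68 with ODD. All 6 tested members were under the median with EVEN and 4 of 6 with ODD, where miR-30b-5p (-1.75) and miR-30c-5p were just above it. The other 4 5p members summed without miR-30e-5p lay 0.17 lower than the median with EVEN and 0.01 lower with ODD. That sum was mostly miR-30c-5p, with 65 of 89 reads in EVEN and 594 of 900 in LacZ, so it does not stand for each member. miR-30b-5p lay 1.00 under the median with EVEN and 0.04 above it with ODD. miR-30d-5p lay 0.11 under it with EVEN and 0.71 under it with ODD. With miR-30e-5p the summed guides were 1.41 under the median with EVEN and 1.19 under it with ODD.

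**Figure D2:**
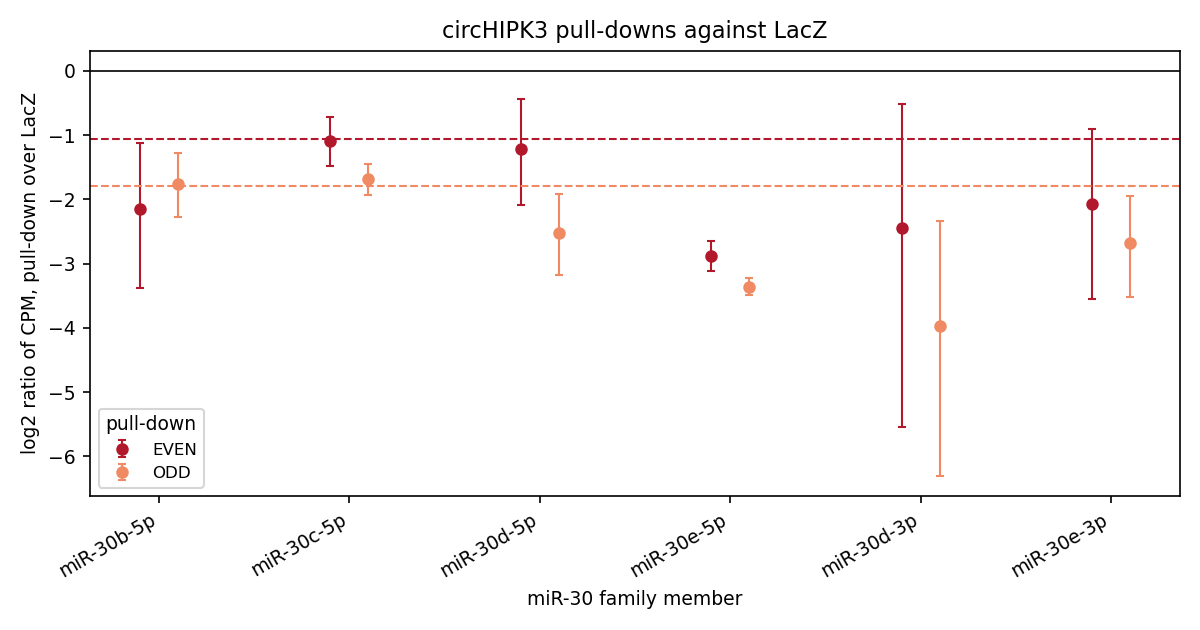
Log2 ratio of CPM, EVEN or ODD over LacZ, for the 6 tested members, computed from the counts without an added constant. Bars are 95% counting intervals and dashed lines the medians of all tested miRNAs (-1.06 with EVEN, -1.79 with ODD, both with 0.5 added); every point lies under 0, and miR-30e-5p is far under both lines.

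**Figure D3:**
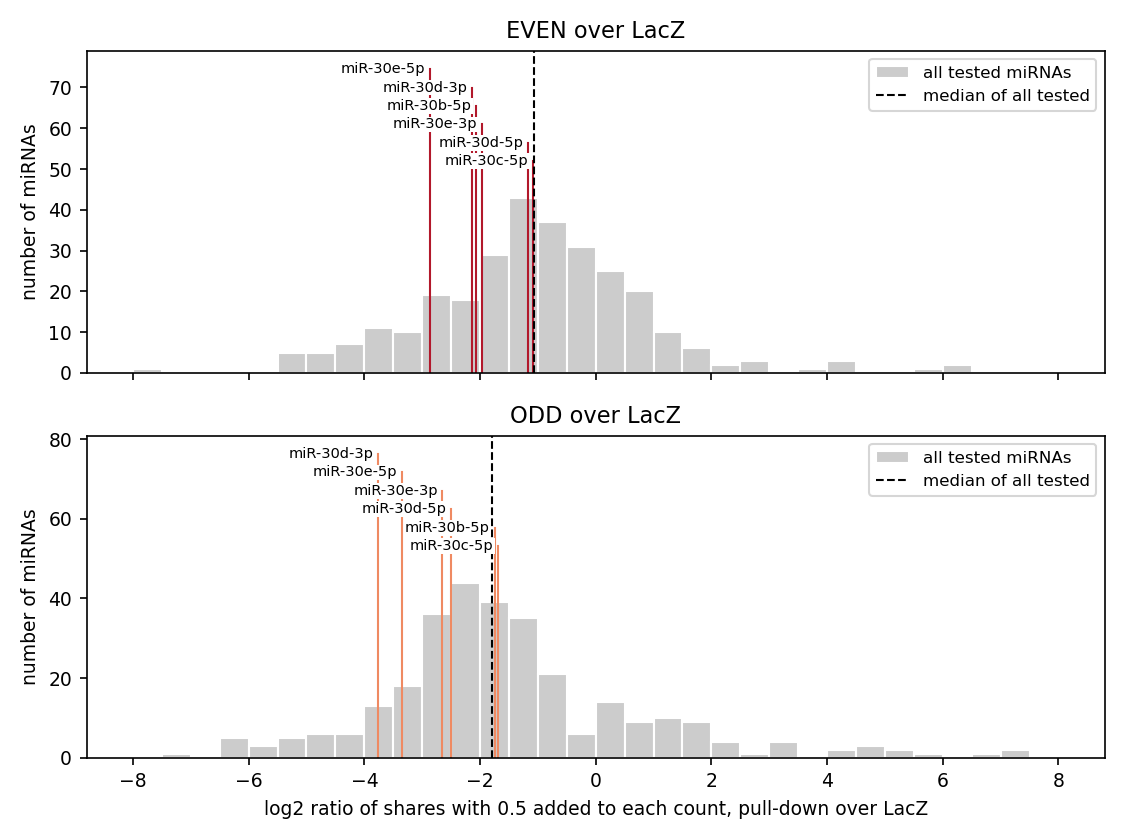
Number of tested miRNAs by log2 ratio (0.5 added to each count) of EVEN over LacZ (top, 289 miRNAs) and ODD over LacZ (bottom, 300 miRNAs), in bins of 0.5. Coloured lines mark the 6 tested miR-30 members; they lie in the lower part of the grey bars or at the dashed median, inside the range of the other miRNAs.

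The ratios to LacZ kept their sign for all 6 members under each other scaling, and their size did not. The 10 most abundant miRNAs, 1 list taken by mean share over the 4 libraries, include no member. They held 60649 reads in EVEN, 290360 in ODD, 205210 in LacZ and 1051313 in the input. TMM or median-of-ratios factors moved every ODD ratio to LacZ upwards. For EVEN, the summed 5p members had a log2 ratio of -2.47 by totals, -2.20 by TMM and -2.06 by median-of-ratios scaling. For ODD the values were -2.98, -1.70 and -1.54. Under both kinds of factor, 4 of the 6 members stayed at least 2-fold lower in each set. Over all miRNAs, 118 of 289 were lower with EVEN and 103 of 300 with ODD probes under TMM factors. With ODD probes miR-30b-5p (-0.46 and -0.30) and miR-30c-5p (-0.40 and -0.24) were no longer at 2-fold, and with EVEN probes miR-30c-5p (-0.81 and -0.67) and miR-30d-5p (-0.90 and -0.76) were not. Median-of-ratios factors gave 43 higher and 107 lower of the 289 with EVEN, beside 28 and 148 by totals. With ODD they gave 68 and 96 of the 300, beside 39 and 211.

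The LacZ library against the input shows how the family behaved on control beads. miR-30e-5p was 1.31-fold lower in LacZ (1.28 to 1.35), and every other 5p member was lower by more. miR-30b-5p was 5.55-fold lower (4.73 to 6.57), miR-30c-5p 2.64-fold (2.43 to 2.87), miR-30d-5p 2.18-fold (1.85 to 2.59) and miR-30a-5p 2.62-fold lower (1.08 to 8.26). The 3p arms miR-30d-3p and miR-30e-3p were both 2.05-fold lower (1.53 to 2.82 and 1.69 to 2.52), and miR-30a-3p was 3.77-fold lower with an interval that reaches 1 (0.994 to 31.96). All 8 were tested and 7 were at least 2-fold lower, against 34.3% of the 475 miRNAs tested, while 18.1% of these were higher. Both arms of miR-30a, counted among the 7, reached 20 reads through the input alone. Leaving the 10 most abundant miRNAs out of the totals left 3 of these 7. Of all 475 miRNAs, 127 were then lower and 108 higher, beside 163 and 86 by totals. The log2 ratio of miR-30e-5p was -0.39 by totals, -0.995 by TMM and -0.67 by median-of-ratios scaling. It was -0.07 without the 10 most abundant miRNAs in the totals, so the size of its step depends on the scaling. Rescaling shifts all members alike and cannot change their order. The interval of miR-30a-5p, from 5 LacZ reads, includes 1.31, so its order against miR-30e-5p is not resolved.

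Against the input, the circHIPK3 pull-downs were lower in each member that had enough reads to judge. miR-30b-5p was furthest down among the 5p members, at 24.5-fold lower in EVEN (12.4 to 56.9) and 18.8-fold lower in ODD (14.03 to 25.8). miR-30e-5p was 9.63-fold lower in EVEN (8.24 to 11.3) and 13.5-fold lower in ODD (12.3 to 14.8). miR-30c-5p was 5.61-fold (4.40 to 7.27) and 8.50-fold lower (7.35 to 9.88), and miR-30d-5p 5.04-fold (3.05 to 9.03) and 12.5-fold lower (8.54 to 19.2). In EVEN, miR-30b-5p was lower than miR-30c-5p, miR-30d-5p and miR-30e-5p by more than their counting intervals. The ODD folds depend on the scaling, as the log2 ratio of miR-30e-5p to the input was -3.75 by totals, -3.06 by TMM and -2.58 by median-of-ratios scaling, and that of miR-30c-5p -3.08, -2.40 and -1.92.

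Among the 3p arms, miR-30e-3p was 8.68-fold lower in EVEN (3.98 to 23.7) and 13.2-fold lower in ODD (8.22 to 22.7), close to the values of its 5p arm. miR-30d-3p was 11.2-fold (3.10 to 92.9) and 32.3-fold lower (10.99 to 156.8). In ODD, miR-30a-5p was 6.57-fold lower (1.77 to 55.02) and miR-30a-3p 7.56-fold lower (1.30 to 304). By the ratio with 0.5 added, 8 of 8 members were at least 2-fold lower in EVEN, where 52.2% of 464 tested miRNAs were lower and 18.3% higher, and 8 of 8 in ODD, where 68.6% of 468 were lower and 13.0% higher. Of these members 6 in EVEN and 4 in ODD reached 20 reads through the input alone, the library where they were high, so nothing is read from these counts. For EVEN the count of 8 includes both arms of miR-30a. miR-30a-5p had 1 EVEN read, with an interval of 0.533-fold to 122-fold lower, and miR-30a-3p had 0 with a limit above its input level. With 5 added to each count these 2 came out above 0, at 0.90 and 1.38, a turn made by the constant in the shallower library. Counting intervals excluded equality for 6 of the 8 members in EVEN and for 8 in ODD. The same share over all miRNAs was not computed, so nothing is read from these counts either.

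**Figure D4:**
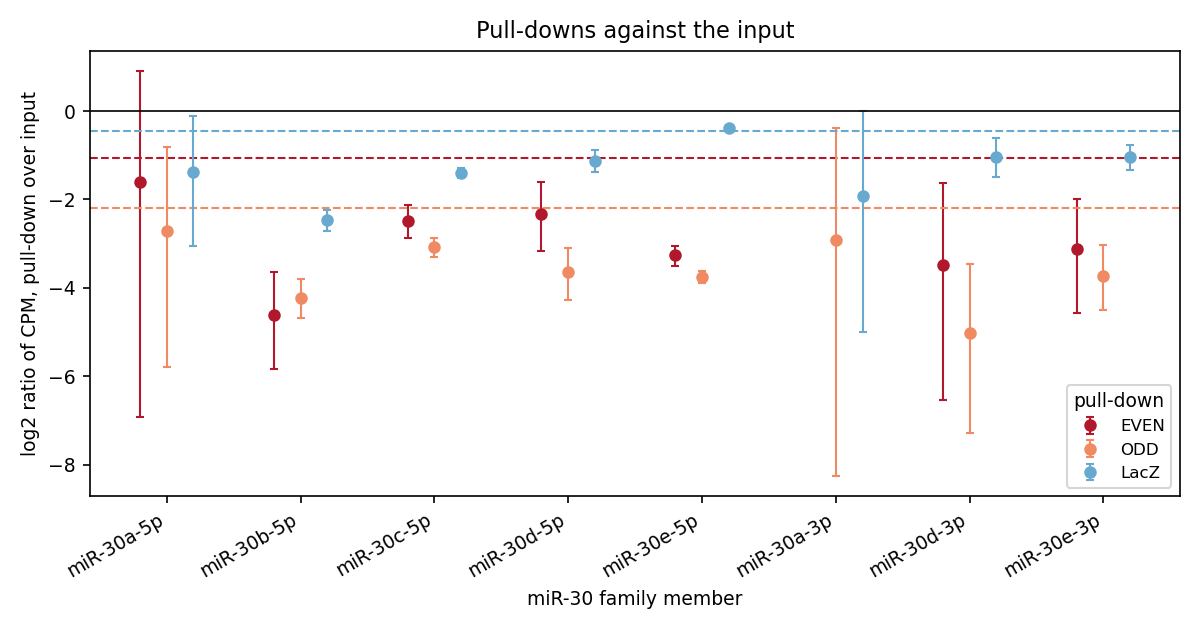
Log2 ratio of CPM, EVEN, ODD or LacZ over the input, for the members with reads in the pull-down, computed without an added constant. Bars are 95% counting intervals and dashed lines the medians of all tested miRNAs (-1.06 for EVEN, -2.19 for ODD, -0.44 for LacZ, with 0.5 added); miR-30e-5p in LacZ is level with its dashed line, and miR-30b-5p is under all 3 lines.

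The make-up of the 5p reads does not depend on how libraries are scaled. miR-30e-5p gave 64.0% of the reads of the 5 5p members in EVEN (57.6 to 69.96), 65.4% in ODD (61.8 to 68.8), 84.7% in LacZ (83.8 to 85.6) and 70.4% in the input (70.1 to 70.8). miR-30c-5p gave 26.3% in EVEN (20.9 to 32.3), 24.8% in ODD (21.8 to 28.1), 10.1% in LacZ (9.34 to 10.9) and 16.9% in the input (16.6 to 17.2). EVEN and ODD had similar shares of both, miR-30c-5p had a larger share there than in LacZ or the input, and LacZ held the most miR-30e-5p. As a ratio, miR-30e-5p was 2.43 times miR-30c-5p in EVEN (1.81 to 3.30), 2.63 times in ODD (2.22 to 3.14), 8.39 times in LacZ (7.70 to 9.15) and 4.17 times in the input (4.09 to 4.26). The distance between these 2 guides in the comparison with LacZ therefore had parts on both sides, a higher ratio in LacZ and a lower one in EVEN and ODD than in the input.

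miR-30b-5p gave 3.24% of the 5p reads in EVEN (1.41 to 6.28), 6.04% in ODD (4.44 to 7.999), 2.58% in LacZ (2.19 to 3.02) and 9.08% in the input (8.86 to 9.30). Its share was below that of the input in all 3 pull-downs. miR-30d-5p gave 6.07% in EVEN (3.44 to 9.82), 3.49% in ODD (2.29 to 5.07), 2.53% in LacZ (2.15 to 2.97) and 3.50% in the input (3.36 to 3.64), with ODD level with the input. miR-30a-5p gave at most 0.405% of the 5p reads of any library.

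**Figure D5:**
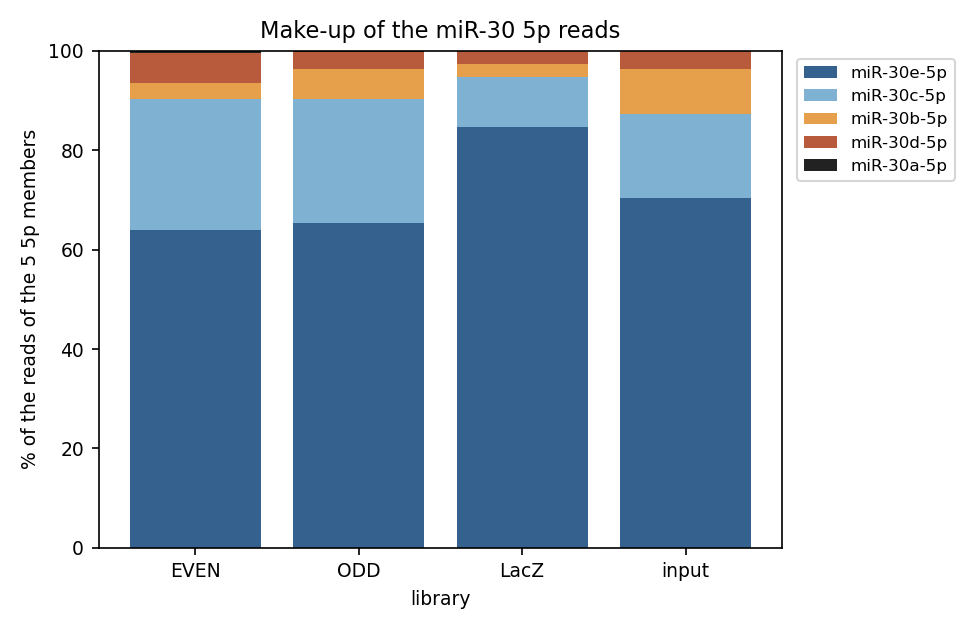
Share of each 5p member (% of the reads of the 5 5p members) in the EVEN, ODD, LacZ and input libraries, 1 stacked bar per library. miR-30e-5p fills 64.0% of the bar in EVEN and 65.4% in ODD, against 84.7% in LacZ and 70.4% in the input, and miR-30c-5p is widest in EVEN and ODD.

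The ratio of the arms of 1 hairpin also cancels the library total. The 5p arm of miR-30e was 26.3 times its 3p arm in EVEN (11.8 to 72.8), 28.6 times in ODD (17.7 to 49.6), 45.7 times in LacZ (37.8 to 55.8) and 29.2 times in the input (27.8 to 30.8). LacZ stood above the input by 1.56 times (exact conditional interval 1.28 to 1.92), while EVEN over input was 0.901 (0.404 to 2.50) and ODD over input 0.980 (0.604 to 1.70). For miR-30d the 5p arm was 7.50 times the 3p arm in EVEN (1.74 to 67.6), 8.67 times in ODD (2.66 to 44.7), 3.17 times in LacZ (2.27 to 4.50) and 3.37 times in the input (3.09 to 3.68). These intervals overlapped, and with 2 EVEN and 3 ODD reads of the 3p arm no difference was detectable. The arms of miR-30a were nearest to balance, at 1.74 in the input (1.22 to 2.48). They could not be compared among the pull-downs, where their reads numbered at most 5.

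The other arms of these hairpins, not counted as members, were rare. miR-30c-1-3p had 0 reads in EVEN, 5 in ODD, 20 in LacZ and 114 in the input. miR-30b-3p had 3, 0, 5 and 41 reads, and miR-30c-2-3p 0, 0, 4 and 11. None had 20 reads in EVEN or ODD.

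EVEN and ODD target the same exon, and for miR-30 their difference depended on the scaling. By totals miR-30e-5p was 1.40-fold higher in EVEN than in ODD (1.16 to 1.68), miR-30c-5p 1.51-fold higher (1.12 to 2.02) and miR-30d-5p 2.49-fold higher (1.22 to 4.87), while miR-30b-5p was 1.31-fold lower with an interval that spans no difference (0.609 to 3.21). The summed 5p members had a log2 ratio of 0.52 by totals and turned to -0.51 by TMM and -0.53 by median-of-ratios scaling. All tested miRNAs moved in the same way, with a median of 0.64 by totals, -0.38 by TMM and -0.40 by median-of-ratios scaling, and relative to that median the sum lay 0.12 lower. Of the 4 members tested, 1 was at least 2-fold higher and 0 lower, beside 37.9% of 203 miRNAs higher and 18.2% lower. Over all miRNAs the split was 77 higher and 37 lower by totals, and 20 and 64 with TMM factors. miR-30d-5p was the member above the others here, and its call was lost with either kind of factor, at 0.31 and 0.29.

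Exon 2 of HIPK3, on chromosome 11 at 33286413 to 33287511 of GRCh38, plus strand, is 1099 nt long and was searched for the reverse complements of the 2 seeds, with the circular junction included. The motif of the 5p seed, TGTTTAC, was found 0 times on the exon's own strand and 0 times on the other, and 6.97% of 55706 windows of the same length from protein-coding transcripts hold it. The 6-letter form GTTTAC was also found 0 times on both strands and is in 15.4% of windows. The motif of the 3p seed, ACTGAAA, was found 2 times on the exon's own strand and 0 times on the other. It is in 11.8% of windows, and at least 2 copies are in 1.07%. The 6-letter form CTGAAA, which lies inside ACTGAAA, was found 3 times on the exon's own strand, in 39.5% of windows, and 2 times on the other.

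Both matches are shown because miR-30a-3p and miR-30e-3p carry that seed. No sequence was matched for miR-30d-3p, so whether it carries that seed was not examined. Capitals mark ACTGAAA. The first lies at chr11:33287151-33287179 and the second at chr11:33287330-33287358, both on the plus strand of GRCh38.
first match: caaggctcagtACTGAAAatgctgatgaa
second match: gtggccactgcACTGAAAaaattgaaaag

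The hairpin of miR-30e gives 1 arm with such a match, miR-30e-3p, and 1 without, miR-30e-5p, and both were lower than in LacZ. The factors, given above, were 4.23 in EVEN and 6.43 in ODD for miR-30e-3p, and 7.33 in EVEN and 10.3 in ODD for miR-30e-5p, with intervals that overlapped with either set. A match of letters is not evidence of binding, and the absence of one says nothing of other kinds of pairing.

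Other guide families of several members are given beside miR-30 without a test of the difference. The let-7 guides, growth-restraining miRNAs, took 37.7% of EVEN, 50.9% of ODD, 31.98% of LacZ and 24.0% of input reads. Of their 9 tested members, 3 were at least 2-fold higher and 1 lower than LacZ with EVEN probes, and 2 higher and 0 lower with ODD probes, with median log2 ratios of 0.05 and 0.51. Both miR-26 guides were at least 2-fold lower in both sets, with medians of -1.75 and -2.46, and 2 of 3 tested miR-181 guides were lower in each, with medians of -2.00 and -2.55. The 5p members of miR-30 had 4 of 4 lower in each set, with medians of -1.61 and -2.12. Over all tested miRNAs, 51.2% were at least 2-fold lower with EVEN and 70.3% with ODD, with medians of -1.06 and -1.79. With EVEN probes, miR-30b-5p (8 reads) and miR-30d-5p (15 reads) were tested only because of their LacZ reads. The miR-30 medians were near those of miR-26 and miR-181 and lower than that of let-7. The families were chosen with earlier results of these data known, so this likeness and contrast are a description only.

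The profile of the summed 5p members over the 4 libraries was set beside the 132 other miRNAs with at least 20 reads in each library, by the Euclidean distance of log2 CPM (0.5 added to each count) centred on each miRNA's mean. The nearest 5 were miR-335-5p at 0.37, miR-26b-5p at 0.43, miR-186-5p at 0.44, miR-199a-5p at 0.57 and miR-148a-3p at 0.57, with a median distance of 2.81. miR-335-5p had 3719 CPM in EVEN, 3163 in ODD, 18374 in LacZ and 38586 in the input. miR-26b-5p had 2759, 1831, 11761 and 16743 CPM in the same libraries. Both were, like miR-30e-5p, lowest in ODD and highest in the input. With 4 points that share libraries, likeness of profile is a description only.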

How the data were processed

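For each of the 4 libraries, the deposited table gives a raw count per miRNA and a CPM equal to that count over the library total. Per the labels' protocols, RNA was recovered with phenol and chloroform and a QIAseq miRNA kit was used before single-end NovaSeq sequencing. The submitters' processing notes name GRCh38. Not given in the sources used here are the trimming, aligner, annotation, strand setting and use of molecular identifiers. PCR copies, if kept, make counting intervals too narrow.

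Members were taken by family name, but the family and the comparison lists were chosen with earlier results of these data known. Log2 ratios used (count + 0.5) over the library total. A miRNA was tested with at least 20 reads in 1 of the 2 libraries and called at 2-fold. Folds are ratios of shares without the 0.5. Named miRNAs are the members, their other arms, the 5 nearest profiles, the comparison families and muscle markers. Other settings tried were scaling by TMM (edgeR 4.0.16) or by median of ratios (DESeq2 1.42.0), leaving the 10 most abundant miRNAs out of totals, 5 added to counts, deposited CPM with 1 added, minimums of 1 and 100 reads, and calls at 4-fold or at 2-fold with a counting interval that excludes equality. Scripts used Python 3.11.15, scipy 1.17.1 and R 4.3.3 and were tested on simulated data. A share of reads says nothing of absolute amounts.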

Additional observations from a re-analysis of the deposited data

How the results depend on the processing

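Directions against LacZ and the input held for the summed 5p members under every scaling and added constant tried, and only EVEN over ODD turned. With TMM factors the log2 ratio of the sum was -2.20 for EVEN over LacZ, -1.70 for ODD over LacZ, -0.51 for EVEN over ODD, -3.46 for EVEN over input, -2.96 for ODD over input and -1.26 for LacZ over input. With median-of-ratios size factors it was -2.06, -1.54, -0.53 and, for ODD and LacZ over input, -2.48 and -0.94. Without the 10 most abundant miRNAs in the totals it was -2.05 for EVEN over LacZ, -2.29 for ODD over LacZ, 0.24 for EVEN over ODD, and -2.38, -2.62 and -0.34 for EVEN, ODD and LacZ over input.

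Members at least 2-fold lower for EVEN over LacZ numbered 3 of 6 with 5 added to each count, beside 87 of 289 miRNAs. At a 4-fold threshold they numbered 3 of 6, beside 76 of 289 miRNAs. For LacZ over input they numbered 3 without the 10 most abundant, 3 with 5 added and 1 at 4-fold. Of all 475 miRNAs tested there, 127, 93 and 55 were lower under the same settings. For EVEN over ODD, members higher numbered 0 with TMM factors, with median-of-ratios factors, at a minimum of 100 reads and at 4-fold. They numbered 3 at a minimum of 1 read, and 1 member was lower with either kind of factor. Over all miRNAs, 20 and 19 of 203 were higher with these factors, 39 of 118 at 100 reads and 22 of 203 at 4-fold. At 1 read 260 of 660 were higher, and 64 of 203 were lower with either kind of factor. With 5 added, 1 member was higher for EVEN over input, beside 194 of 464 miRNAs. There miR-30a-5p turned to 0.90 and miR-30a-3p to 1.38, by the constant. Of 138 such sums and counts 108 stayed within counting error or 1.5 times, and many of these were counts of 0 that stayed 0. Changes of scaling took the summed 5p members outside their counting interval, except EVEN over input with median-of-ratios factors. Of 212 values for single members and arms, 60 left their counting interval and 2 reversed. The causes of the other shifts were not tested. Depth limits most what EVEN shows of both miR-30a arms and of miR-30d-3p. No paired analysis was possible because each group is 1 library.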
